A study of Homo sapiens with 12 samples.

Results

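ZNF185 and 6 other genes of LIM domain proteins that bind actin or sit on actin structures were followed across 4 clones of hTERT RPE-1, a human retinal pigment epithelial cell line immortalised with telomerase. The 7 genes, ZNF185, LIMA1, LMO7, ZYX, LASP1, PDLIM5 and PDLIM7, were found by symbol among 60708 gene identifiers, and all 7 passed the filter on low counts that left 15388 genes to test. They were chosen by name with their estimated counts in LmnB1 against mCherry libraries already known, in which ZNF185 stands out. Their values in that comparison are therefore a description with no test. LmnB1_16 and LmnB1_6 were clonal stable lines that over-expressed a fusion of mCherry with lamin B1, which builds filaments under the inner nuclear membrane. mCherry_4 and mCherry_3 were clonal stable lines that over-expressed the red fluorescent protein mCherry alone. Each clone gave 3 libraries called biological replicates, and all 12 cultures had received 0.05 ug/mL doxycycline for 24 hours. Since each construct is represented by 2 clones, libraries of 1 clone do not sample a construct independently, and the p-values reflect only how far these 12 libraries spread. The sources used here do not name the promoter that drove the constructs.

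A LIM domain is a zinc-binding fold that docks other proteins. Proteins that carry it link actin filaments to focal adhesions, where cells grip the matrix, and to adherens junctions, where epithelial cells grip each other, and several of them gather on stress fibres under tension. In pigment epithelium such filaments form a belt around the cell at the junctions. Lamins reach this system from the other side, through the linker proteins of the nuclear envelope that attach to cytoplasmic actin.

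Total estimated counts were 20.6 to 29.5 M per library. LMNB1, the gene that the construct carries, checked the labels with 3374 ± 273 and 3976 ± 164 CPM (read counts relative to the TMM-scaled library total) in LmnB1_16 and LmnB1_6, against 161 ± 7.29 and 84.98 ± 7.12 CPM in mCherry_4 and mCherry_3 (SD, n = 3 each). Levels are CPM, averaged with the SD of a clone's 3 libraries, unless TPM, a level per transcript length, is named. RNA was taken from whole cultures, so fewer cells with a transcript and less transcript per cell cannot be told apart. Of 10 listed pigment epithelium markers 6 averaged under 1 CPM over the libraries, although 6 passed the filter on low counts, SERPINF1 and RDH5 among them. RPE65 and TTR had 0 counts in all 12 libraries, and RLBP1 and TYRP1 reached at most 0.385 and 0.135 CPM. The pigment epithelium transcription factor genes MITF and OTX2 were at 31.3 ± 2.69 and 15.5 ± 0.813 CPM in LmnB1_16, at 0.0590 ± 0.0686 and 0 CPM in LmnB1_6, at 48.97 ± 2.03 and 11.1 ± 1.46 CPM in mCherry_4 and at 58.6 ± 5.83 and 12.6 ± 0.0999 CPM in mCherry_3.

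ZNF185 (ENSG00000147394.18, chromosome X, 152914442 to 152973480, plus strand, GRCh38) encodes an actin-associated protein with a LIM domain at its end. It had 88.5, 88.5 and 84.8 CPM in the LmnB1_16 libraries, 127, 125 and 121 CPM in the LmnB1_6 libraries, 2.17, 3.71 and 2.75 CPM in the mCherry_4 libraries and 2.47, 1.83 and 1.37 CPM in the mCherry_3 libraries. Every LmnB1 library was far above every mCherry library, and LmnB1_6 was above LmnB1_16 without overlap. The low values rest on few reads, 202 counts in the 3 mCherry_4 libraries and 153 in the 3 mCherry_3 libraries, against 5934 in LmnB1_16 and 9132 in LmnB1_6. The log2 fold change of LmnB1 over mCherry was 5.48 (SE 0.23, a 44.5-fold higher level). By clone it was 4.91 for LmnB1_16 over mCherry_4, 5.53 for LmnB1_16 over mCherry_3, 5.43 for LmnB1_6 over mCherry_4 and 6.04 for LmnB1_6 over mCherry_3, so the fold ranged from 30.1 to 65.9 with the pair of clones.

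**Figure D1:**
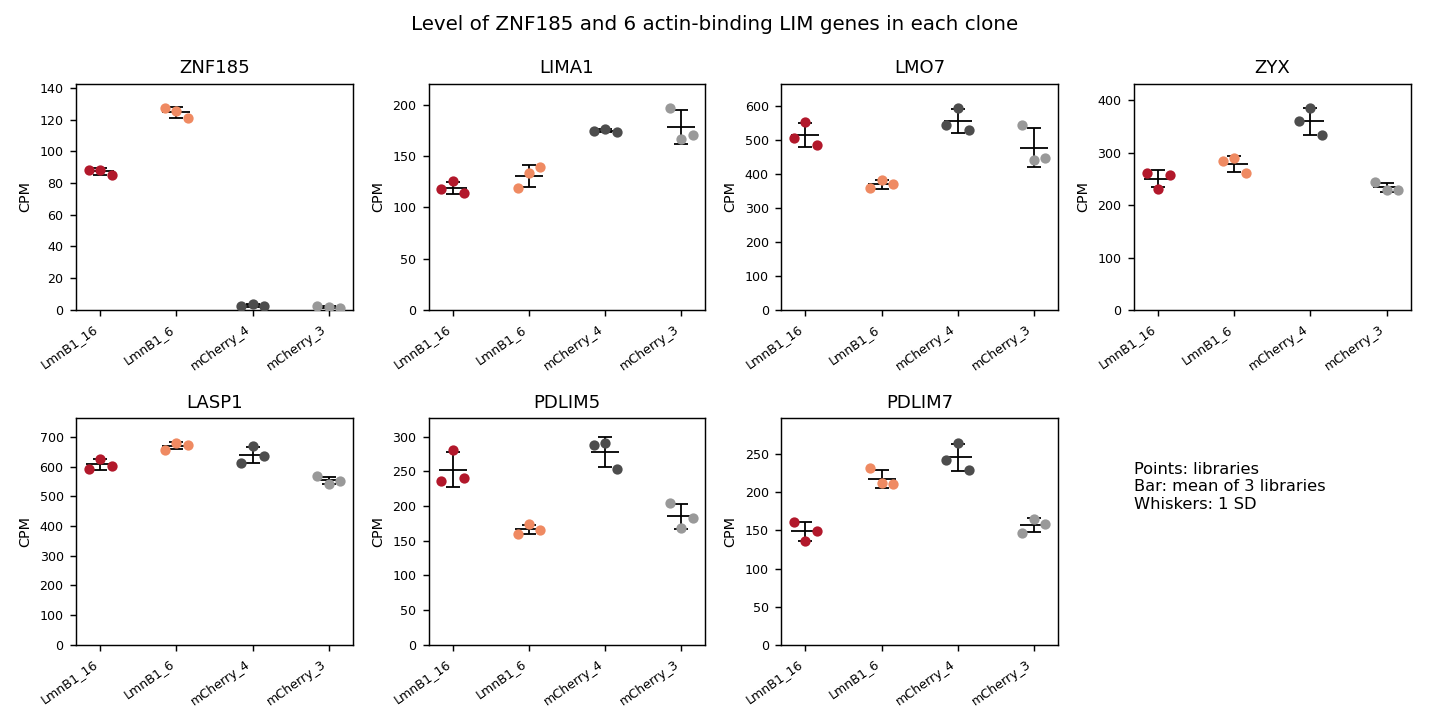
Level of the 7 genes in CPM (vertical axis, from 0) in each clone (horizontal axis), with a point per library, a bar at the mean and whiskers of 1 SD (n = 3). ZNF185 lies between 84.8 and 127 CPM in the LmnB1 libraries and at 3.71 CPM or below in the mCherry libraries, LIMA1 lies lower in all LmnB1 libraries, and the libraries of the constructs overlap for the other 5 genes.

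Within a construct, ZNF185 was tested, since that contrast did not choose it. It was lower in LmnB1_16 than in LmnB1_6 (log2 fold change -0.51, SE 0.09, edgeR adjusted p = 0.00043; lower in 3 of 3 libraries). In mCherry_4 it was above mCherry_3 (log2 fold change 0.62, SE 0.20, edgeR adjusted p = 0.0216), but the libraries of these clones overlapped, and the call was lost without mCherry_4 replicate 2, mCherry_3 replicate 2 or mCherry_3 replicate 3 (0.39 to 0.59, edgeR adjusted p up to 0.161). On TPM neither difference was called (limma adjusted p = 0.227 and 0.139). The libraries of the LmnB1 clones still did not overlap, at 34.3 to 37.7 TPM in LmnB1_16 and 45.3 to 48.0 TPM in LmnB1_6. That limma fit takes 1 spread per gene over all 12 libraries, which include the mCherry libraries at 0.526 to 1.34 TPM. The order of the clones was the same on both scales, LmnB1_6, LmnB1_16, mCherry_4 and mCherry_3.

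ZNF185 has 4 annotated start sites in RefSeq (GRCh38.p14), and the sequences around the first and the most downstream of them are shown because the gene differs so widely between the clones; LIMA1 is shown for contrast, as the other gene whose constructs did not overlap. Each sequence holds 250 bases before the start to 50 bases after it, 5′ to 3′ on the strand of the gene, with CG dinucleotides in capitals. The first ZNF185 window is at chrX:152914192-152914491, the downstream one at chrX:152941421-152941720, both on the plus strand, and the LIMA1 window is at chr12:50283471-50283770 on the minus strand.
ZNF185 start 1: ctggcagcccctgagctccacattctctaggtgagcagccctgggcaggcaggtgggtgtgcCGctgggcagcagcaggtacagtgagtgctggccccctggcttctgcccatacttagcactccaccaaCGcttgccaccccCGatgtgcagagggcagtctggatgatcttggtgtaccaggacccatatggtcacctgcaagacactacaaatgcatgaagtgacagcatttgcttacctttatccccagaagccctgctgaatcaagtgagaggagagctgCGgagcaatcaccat
ZNF185 start 4: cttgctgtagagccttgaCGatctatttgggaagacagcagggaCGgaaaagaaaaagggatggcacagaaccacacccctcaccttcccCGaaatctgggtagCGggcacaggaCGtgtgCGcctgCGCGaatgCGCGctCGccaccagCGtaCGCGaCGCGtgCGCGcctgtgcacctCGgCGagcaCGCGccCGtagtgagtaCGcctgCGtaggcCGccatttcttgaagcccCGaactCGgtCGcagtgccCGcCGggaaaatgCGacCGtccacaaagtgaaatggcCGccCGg
LIMA1 start 1: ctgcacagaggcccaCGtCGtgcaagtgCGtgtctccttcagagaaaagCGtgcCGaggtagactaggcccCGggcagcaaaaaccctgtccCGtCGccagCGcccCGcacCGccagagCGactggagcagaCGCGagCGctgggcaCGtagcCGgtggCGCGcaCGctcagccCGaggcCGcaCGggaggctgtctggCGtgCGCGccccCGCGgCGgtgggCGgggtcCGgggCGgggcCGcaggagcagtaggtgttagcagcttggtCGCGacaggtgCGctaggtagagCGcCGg
The first window held 4 CG, and 29.6% of 35114 RefSeq promoter windows of the same length had as many or fewer. The downstream ZNF185 window held 35 CG (87.3% had as many or fewer) and the LIMA1 window shown held 38 (91.3%), where the median of all windows was 14. The first ZNF185 window had 1 match to TGANTCA on either strand (7.71% of windows have one). It read TGAATCA, whereas the AP-1 consensus has C or G at N, so it is no AP-1 consensus site. This window had no GGGCGG, the GC box (45% have one), no GGAATG, a TEAD consensus (14%), and no TATAAA (11.5%). It also had no CArG box, the site of the actin-responsive factor SRF (1.29%). The downstream window had 1 GGGCGG and none of the others, and the LIMA1 window shown had 2 GGGCGG and none of the others. LIMA1 has 2 annotated starts, and the window of its other start held 0 CG (3.96% had as many or fewer) and 1 GGAATG. These matches describe letters only, and the gene-level counts do not tell which start was used.

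LIMA1 (ENSG00000050405.13, chromosome 12, 50175788 to 50283546, minus strand), also called EPLIN, bundles actin filaments, slows their disassembly and links cadherin junctions to them. It had 118, 125 and 114 CPM in LmnB1_16, 119, 134 and 139 CPM in LmnB1_6, 174, 177 and 173 CPM in mCherry_4 and 197, 167 and 170.3 CPM in mCherry_3. All 6 LmnB1 libraries lay below all 6 mCherry libraries, while the clones of a construct overlapped. The log2 fold change of LmnB1 over mCherry was -0.50 (SE 0.06), and it lay between -0.58 and -0.42 in the 4 pairs of an LmnB1 with an mCherry clone. LIMA1 was the one gene of the 7 that was called neither between LmnB1_16 and LmnB1_6 (log2 fold change -0.13, SE 0.07, edgeR adjusted p = 0.174) nor between mCherry_4 and mCherry_3 (-0.03, SE 0.07, edgeR adjusted p = 0.802; 0.05 without mCherry_3 replicate 1).

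LMO7 (ENSG00000136153.20, chromosome 13, 75620434 to 75859870, plus strand) encodes a junction protein that binds afadin and alpha-actinin and, in the nuclear envelope, emerin. It had 506, 554 and 487 CPM in LmnB1_16, 358, 384 and 370.3 CPM in LmnB1_6, 545, 596 and 529 CPM in mCherry_4 and 547, 443 and 447 CPM in mCherry_3. LmnB1_6 was below every other library, and the other 3 clones overlapped one another. LMO7 was higher in LmnB1_16 than in LmnB1_6 (log2 fold change 0.48, SE 0.08, edgeR adjusted p = 0.000145; higher in 3 of 3 libraries). It was also higher in mCherry_4 than in mCherry_3 (0.22, SE 0.08, edgeR adjusted p = 0.0381), a call lost without mCherry_4 replicate 1 or 2 or mCherry_3 replicate 2 or 3 (edgeR adjusted p up to 0.166) and on TPM (0.10, limma adjusted p = 0.433). LMO7 overlaps a non-coding gene on its own strand (ENSG00000261553.5, 820 counts over all libraries) and its antisense gene LMO7-AS1 (24 counts), which are small beside its own counts.

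ZYX (ENSG00000159840.16, chromosome 7, 143381080 to 143391111, plus strand) encodes zyxin, which moves to strained stress fibres and recruits the actin assembly factors of the Ena/VASP family. It had 262, 232 and 258 CPM in LmnB1_16, 285, 291 and 261 CPM in LmnB1_6, 361, 386 and 334 CPM in mCherry_4 and 245, 228 and 229 CPM in mCherry_3. Only mCherry_4 stood apart, above all libraries of the other 3 clones. ZYX was higher in mCherry_4 than in mCherry_3 (log2 fold change 0.62, SE 0.07, edgeR adjusted p = 2.23e-06), and LmnB1_16 against LmnB1_6 did not pass the test (-0.15, SE 0.07, edgeR adjusted p = 0.0936).

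LASP1 (ENSG00000002834.18, chromosome 17, 38869859 to 38921770, plus strand) encodes a LIM and SH3 protein that binds actin through nebulin-like repeats. It had 592, 627 and 604 CPM in LmnB1_16, 657, 681 and 672 CPM in LmnB1_6, 614, 668 and 637 CPM in mCherry_4 and 568, 543 and 553 CPM in mCherry_3. These were the narrowest differences of the 7 genes among the clones by CPM. LASP1 was higher in mCherry_4 than in mCherry_3 by counts (log2 fold change 0.21, SE 0.05, edgeR adjusted p = 0.00381) but not on TPM (0.08, limma adjusted p = 0.351). It was lower in LmnB1_16 than in LmnB1_6 (-0.14, SE 0.05, edgeR adjusted p = 0.0369), but not without LmnB1_16 replicate 1 or 3, any 1 of the LmnB1_6 libraries, or mCherry_3 replicate 2 or 3 (edgeR adjusted p up to 0.123), and not on TPM (-0.09, limma adjusted p = 0.329). An antisense gene within LASP1 (ENSG00000265784.1) had 464 counts over all libraries, and the counts cannot be split by strand, since the sources used here do not state how strand was treated.

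PDLIM5 (ENSG00000163110.15, chromosome 4, 94451857 to 94668227, plus strand) and PDLIM7 (ENSG00000196923.14, chromosome 5, 177483394 to 177497606, minus strand) encode the PDZ-LIM proteins ENH and Enigma, which bind the actin cross-linker alpha-actinin or tropomyosin through the PDZ domain and kinases through the LIM domains. PDLIM5 had 236, 281 and 241 CPM in LmnB1_16, 160.1, 173 and 166 CPM in LmnB1_6, 289, 292 and 253 CPM in mCherry_4 and 205, 168 and 182 CPM in mCherry_3. LmnB1_16 and mCherry_4 were high and LmnB1_6 and mCherry_3 low, with no overlap between these levels. PDLIM7 had 161, 137 and 149 CPM in LmnB1_16, 232, 212 and 211 CPM in LmnB1_6, 243, 265 and 229 CPM in mCherry_4 and 147, 165 and 159 CPM in mCherry_3. Here LmnB1_6 and mCherry_4 were high and LmnB1_16 and mCherry_3 low, again with no overlap.

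The 2 genes moved together between the mCherry clones and apart between the LmnB1 clones. PDLIM5 was higher in LmnB1_16 than in LmnB1_6 (log2 fold change 0.60, SE 0.08, edgeR adjusted p = 2.02e-05), and PDLIM7 was lower (-0.55, SE 0.07, edgeR adjusted p = 1.34e-05). In mCherry_4 over mCherry_3 PDLIM5 had a log2 fold change of 0.59 (SE 0.08, edgeR adjusted p = 3.46e-05) and PDLIM7 one of 0.65 (SE 0.07, edgeR adjusted p = 3.22e-06). These 4 calls held in every fit that left out 1 library, and on TPM.

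Between the constructs, LMO7, ZYX, LASP1, PDLIM5 and PDLIM7 had log2 fold changes of -0.22, -0.17, 0.10, -0.14 and -0.13 with SE of 0.12, 0.14, 0.07, 0.18 and 0.18, and their libraries overlapped. Of the 7 genes ZNF185 was called higher and LIMA1 lower at an edgeR adjusted p under 0.05, beside 17.8% of the 15388 tested genes (8.58% higher, 9.25% lower). The same pair separated all LmnB1 from all mCherry libraries, as 8.66% of genes do (3.8% above, 4.85% below), and was called in all 4 clone pairs, as 4.68% are (1.77% higher, 2.91% lower). In the single pairs 15.7% of genes were called for LmnB1_16 over mCherry_4 (6.67% higher, 9% lower) and 44.4% for LmnB1_16 over mCherry_3 (22.5% higher, 22% lower). For LmnB1_6 they were 37.2% over mCherry_4 (17.1% higher, 20.1% lower) and 52.8% over mCherry_3 (26% higher, 26.8% lower). When each clone's libraries were summed first, edgeR called 0 of the 7, as it called 0 of all genes (643 at an unadjusted p under 0.05). With clone means in the fit of the 4 clones it called 5 of the 7, beside 7141 of the 15388 tested genes. Nothing is read from these counts, since the genes were chosen with this comparison known.

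Between the clones of a construct most of the genes differed. LmnB1_16 differed from LmnB1_6 for 5 of the 7, with LMO7 and PDLIM5 higher and ZNF185, LASP1 and PDLIM7 lower, while 34.4% of all tested genes were called (17.8% higher, 16.6% lower). On TPM 3 of the 7 were called there, LMO7 and PDLIM5 higher and PDLIM7 lower, beside 4124 of all tested genes (2480 higher, 1644 lower). mCherry_4 was higher than mCherry_3 for 6 of the 7 and lower for 0, with LIMA1 not called, while 37.4% of all genes were called (19.9% higher, 17.4% lower). Libraries of LmnB1_16 and LmnB1_6 did not overlap for 5 of the 7 genes (44% of all genes), and those of mCherry_4 and mCherry_3 for 4 of the 7 (50.3%). On the lower side in mCherry_4 edgeR gave 0 at an unadjusted p under 0.05 too. DESeq2 called the same 6 genes higher and 0 lower, beside 3020 of all tested genes higher and 2792 lower. The median log2 fold change of the 7 genes was 0.59 in mCherry_4 over mCherry_3, with 0.01 over all tested genes, and -0.14 in LmnB1_16 over LmnB1_6, with 0.00 over all. On TPM 3 of the 7 were called higher in mCherry_4 (ZYX, PDLIM5 and PDLIM7) and 0 lower, beside 1412 of all tested genes higher and 3221 lower. On that scale the median of all genes was -0.12, so that relative to it the log2 values were 0.61 for ZYX, 0.57 for PDLIM5 and 0.33 for PDLIM7, and 53.3% of the called genes were higher in mCherry_4 by counts but 30.5% by TPM. Whether the difference between the LmnB1 clones differs from that between the mCherry clones was not tested.

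**Figure D2:**
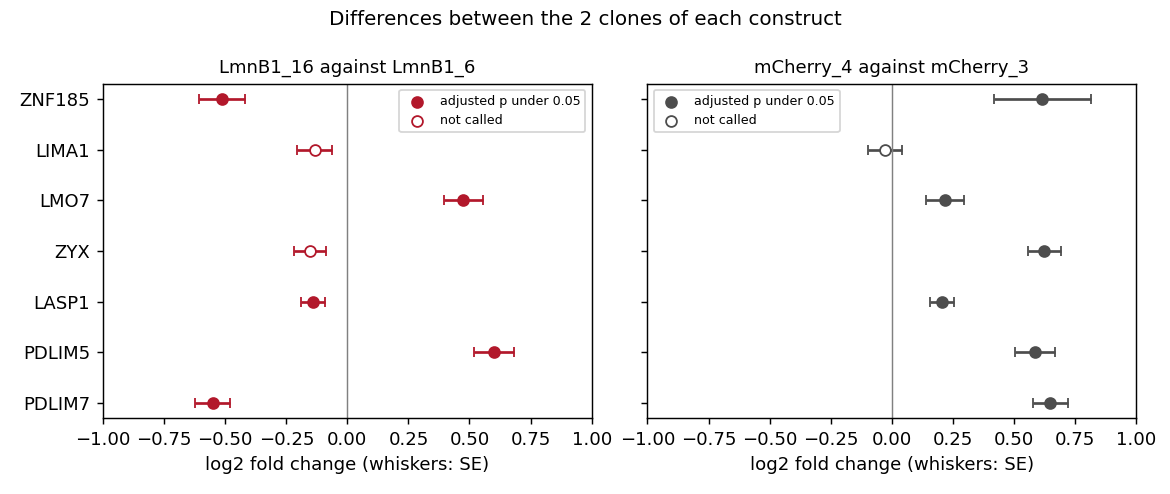
Log2 fold change (horizontal axis, whiskers of 1 SE) of the 7 genes in LmnB1_16 over LmnB1_6 (left) and mCherry_4 over mCherry_3 (right), with filled points for an edgeR adjusted p under 0.05. In the right panel 6 genes lie to the right of 0, between 0.21 and 0.65, and in the left panel LMO7 and PDLIM5 lie to the right and ZNF185, LASP1 and PDLIM7 to the left.

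Per transcript length ZNF185 was the lowest of the 7 genes in every clone, at 35.6 ± 1.80 and 46.7 ± 1.33 TPM in LmnB1_16 and LmnB1_6 and 1.10 ± 0.261 and 0.787 ± 0.295 TPM in mCherry_4 and mCherry_3 (SD, n = 3 each). It made up 3.28% and 4.34% of the summed TPM of the 7 genes in LmnB1_16 and LmnB1_6, and 0.0854% and 0.0698% in mCherry_4 and mCherry_3. The sum itself was 1085 ± 58.2 and 1076 ± 25.6 TPM in LmnB1_16 and LmnB1_6 and 1285 ± 83.8 and 1120.4 ± 42.1 TPM in mCherry_4 and mCherry_3. LMO7 was the most abundant by TPM in LmnB1_16 (287 ± 31.2), mCherry_4 (310.4 ± 24.4) and mCherry_3 (290.03 ± 28.7), although its libraries overlapped those of LASP1 in LmnB1_16 and of PDLIM7 in mCherry_4. In LmnB1_6 LASP1 led with 262 ± 11.2 TPM, and LMO7 came after PDLIM7 and ZYX, overlapping ZYX, at 197 ± 7.62 TPM. PDLIM5 and LIMA1 stood above ZNF185 and below the other 4 genes in every clone, at 56.2 to 112 and 53.7 to 99.96 TPM.

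PDLIM7 also differed in its effective length, the abundance-weighted transcript length behind the TPM. It was 1246 ± 16.2 and 1269 ± 13.0 bases in LmnB1_16 and LmnB1_6, 1256 ± 25.2 bases in mCherry_4 and 1014 ± 19.1 bases in mCherry_3 (SD, n = 3 each). mCherry_3 was short in all 3 libraries, with 1030.3, 1019 and 993 bases, and the other 3 clones overlapped. The log2 ratio of mCherry_4 over mCherry_3 was 0.31 (SE 0.02, limma adjusted p = 0.000154), a contrast in which 25 of 15388 genes were called (0.162%). The other 6 genes were not called between mCherry_4 and mCherry_3 (limma adjusted p at least 0.988), and none of the 7 between LmnB1_16 and LmnB1_6 (limma adjusted p at least 0.95; 0 at an unadjusted p under 0.05), where 0.247% of genes were called. GENCODE 29 lists 16 transcripts of PDLIM7 with 405 to 1904 bases, and the gene-level files do not tell which of them changed. The PDLIM7 difference of mCherry_4 over mCherry_3 was smaller by TPM (276 ± 17.4 against 239.6 ± 14.6) than by CPM (246 ± 18.2 against 157 ± 8.98). The log2 fold change was 0.20 on TPM and 0.65 by counts. Both the length and the shift of all genes on TPM, with a median of -0.12 in this contrast, enter that gap.

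**Figure D3:**
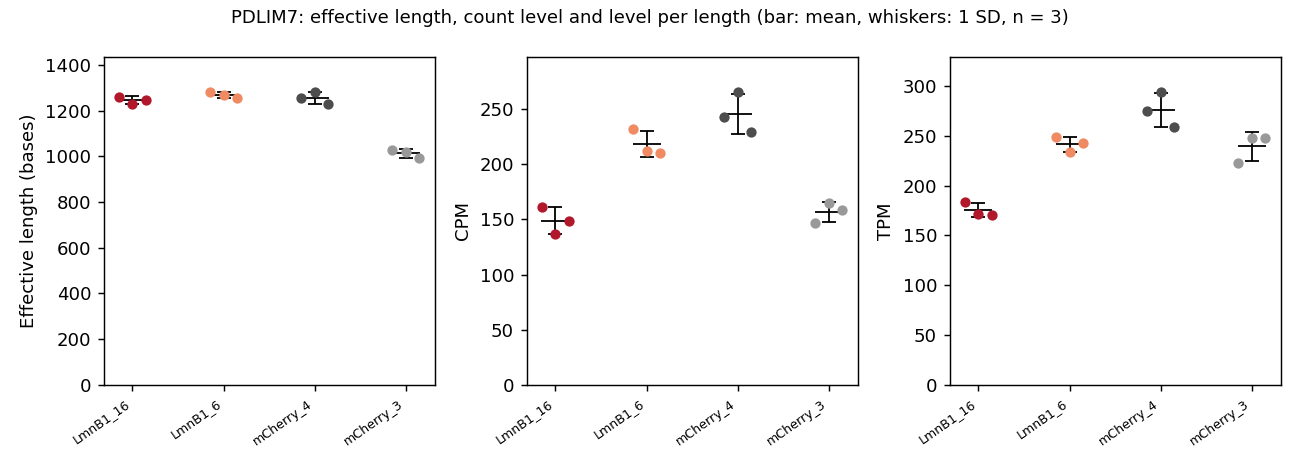
PDLIM7 in each clone (horizontal axis) as effective length in bases, level in CPM and level in TPM (vertical axes, from 0), with a point per library, a bar at the mean and whiskers of 1 SD (n = 3). The 3 mCherry_3 libraries lie at 993 to 1030.3 bases and all other libraries at 1229.9 bases or above.

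Genes whose pattern over the 12 libraries was nearest to that of ZNF185 were sought among 11788 protein-coding genes at 1 CPM or more, by the root mean square difference of log2(CPM + 0.5) after each gene was centred on its own mean. The nearest was LMNB1 itself (0.31), followed by APBA2 (0.58), an adaptor that binds the amyloid precursor protein, POGLUT3 (0.67), an O-glucosyltransferase, BGN (0.76), the matrix proteoglycan biglycan, and MGA (0.99), a transcription factor that pairs with MAX. APBA2 had 7.04 ± 0.387 and 20.1 ± 0.977 CPM in LmnB1_16 and LmnB1_6, 0.282 ± 0.262 CPM in mCherry_4 and 0 counts in mCherry_3. MGA had 14.6 ± 1.90 and 24.6 ± 1.93 CPM in LmnB1_16 and LmnB1_6, and 2.71 ± 0.195 and 0.209 ± 0.0540 CPM in mCherry_4 and mCherry_3. These values are a description with no test. LMNB1, whose count includes the construct, APBA2 and MGA had their means in the same order of clones as ZNF185, while POGLUT3 and BGN had higher means in LmnB1_16 than in LmnB1_6. For the other 6 genes the nearest were NADSYN1 for LIMA1 (0.0593), ABHD5 for LMO7 (0.0712), TUBB6 for ZYX (0.0615), SURF4 for LASP1 (0.0313), SLC38A1 for PDLIM5 (0.0790) and DKK3 for PDLIM7 (0.0932), distances that are small because these genes vary little.

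**Figure D4:**
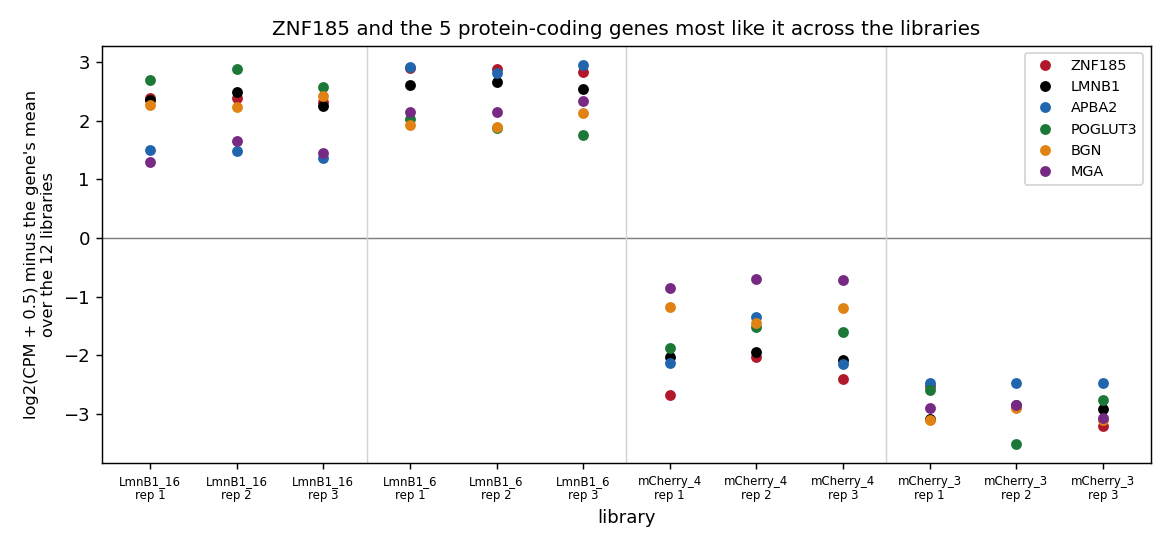
ZNF185 and the 5 protein-coding genes nearest to it in pattern, as log2(CPM + 0.5) minus the mean of the gene over the 12 libraries (vertical axis), in each library (horizontal axis). All 6 genes lie above 0 in the 6 LmnB1 libraries and below 0 in the 6 mCherry libraries, and they spread by clone, with APBA2 and MGA lower in LmnB1_16 than in LmnB1_6.

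No tested gene beside ZNF185 on chromosome X had a fold change near its own. Of 22 protein-coding genes within 500 kb, 5 were tested, and edgeR called 0 between the constructs (2 at an unadjusted p under 0.05; DESeq2 called 1). NSDHL, an enzyme of cholesterol synthesis 44.7 kb away, had 24.7 ± 0.982 and 26.9 ± 2.97 CPM in LmnB1_16 and LmnB1_6, and 28.3 ± 1.17 and 26.04 ± 0.825 CPM in mCherry_4 and mCherry_3 (log2 fold change -0.07, SE 0.07, edgeR adjusted p = 0.479). CETN2 and ZNF275 had log2 fold changes of -0.07 and -0.00 (edgeR adjusted p = 0.487 and 0.993). HAUS7 and TREX2, which overlap each other and are uncertain, had 0.44 and 0.69 (edgeR adjusted p = 0.0721 and 0.142). BGN, named above for its pattern and singled out here after its position was seen, starts 521.5 kb beyond the end of ZNF185, just outside this window. Within 500 kb of the other 6 genes the number that edgeR called higher and lower between the constructs, beside 8.58% and 9.25% of all genes, was 1 and 1 of 13 for LIMA1, 1 and 0 of 3 for LMO7, 0 and 1 of 7 for ZYX, 1 and 1 of 16 for LASP1, 0 and 1 of 3 for PDLIM5 and 2 and 1 of 18 for PDLIM7. Of all 65 tested neighbours edgeR called 10, beside 17.8% of all tested genes. DESeq2 called 18 of them, beside 3741 of the 15388 tested genes. By member, DESeq2 called 3 of 13 for LIMA1, 1 of 3 for LMO7 and 3 of 7 for ZYX. It called 2 of 16 for LASP1, 2 of 3 for PDLIM5 and 6 of 18 for PDLIM7.

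Other genes of the same protein families, their binding partners and the actin-regulated targets of SRF were taken as 7 lists of 69 genes, of which 65 were tested. These lists too were drawn up with earlier results of the data known, so their counts and p-values are no independent support. Between the constructs 3 rose and 11 fell in the LmnB1 libraries, with a median log2 fold change of -0.13 (0.00 over all tested genes). Of all tested genes 17.8% were called (8.58% higher, 9.25% lower). All 4 clone pairs called 1 higher, PDLIM3, and 5 lower, FHL1, MICAL3, MYL9, TPM2 and CALD1, beside 1.77% and 2.91% of all genes. The split of 3 higher and 11 lower depended on the clones, with 14 higher and 8 lower without mCherry_4, 12 and 13 without LmnB1_16, 1 and 11 without LmnB1_6, and 1 and 17 without mCherry_3. The count of 14 was 7 without LmnB1_6 replicate 1 or 2 and 6 without mCherry_3 replicate 1 or 3, and with counts summed per clone it was 0 (3 at an unadjusted p under 0.05).

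**Figure D5:**
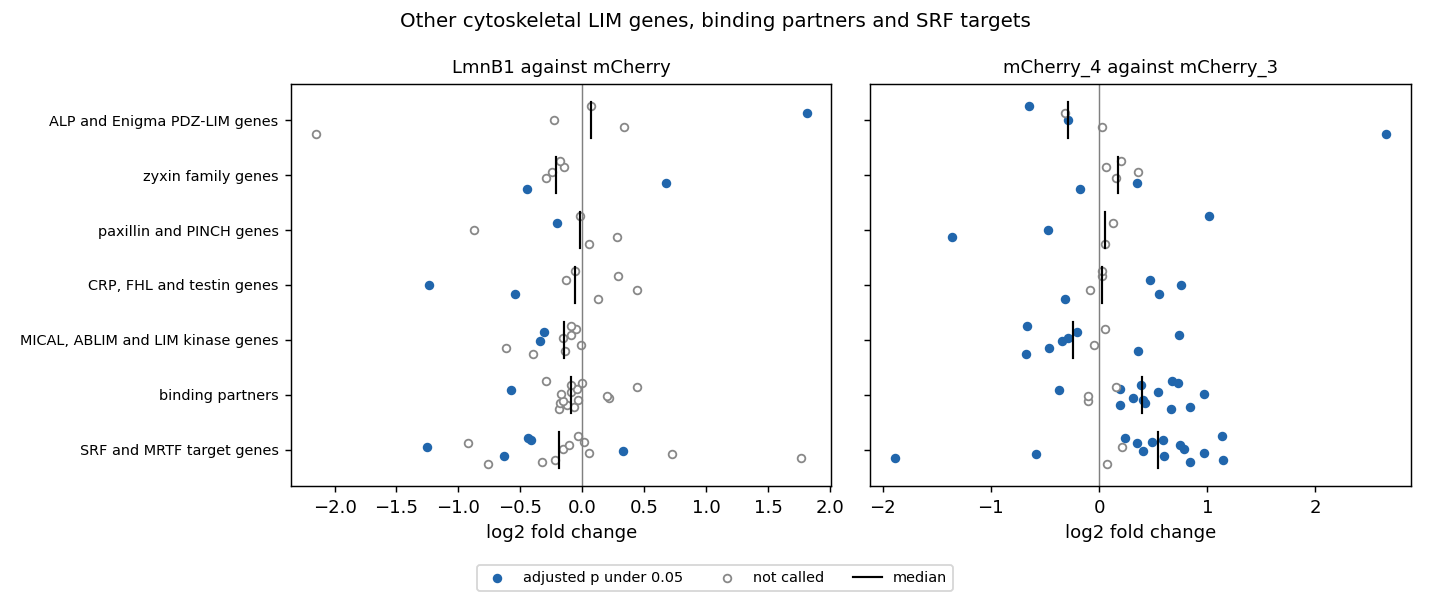
Log2 fold change (horizontal axis) of each tested gene of 7 lists (rows) in LmnB1 over mCherry (left) and mCherry_4 over mCherry_3 (right), with filled points for an edgeR adjusted p under 0.05 and a vertical bar at the median of the list. The medians lie between -0.21 and 0.07 on the left, and on the right the binding partners and the SRF targets have medians of 0.40 and 0.54.

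The counts by list stand beside 8.58% of all tested genes higher and 9.25% lower between the constructs. Of the other PDZ-LIM genes 1 of 5 rose and 0 fell. PDLIM3, or ALP, which binds alpha-actinin, had 9.37 ± 1.44 and 25.03 ± 2.45 CPM in LmnB1_16 and LmnB1_6, against 4.36 ± 0.714 and 5.43 ± 0.649 CPM in mCherry_4 and mCherry_3 (log2 fold change 1.81, SE 0.31, edgeR adjusted p = 0.00394). Among 6 other zyxin family genes FBLIM1 (migfilin, at cell contacts) rose (0.67, SE 0.17, edgeR adjusted p = 0.0214) and AJUBA, a junction and Hippo pathway protein, fell (-0.44, SE 0.12, edgeR adjusted p = 0.027). Of 5 paxillin and PINCH genes 0 rose and PXN, the focal adhesion scaffold paxillin, fell (-0.20, SE 0.06, edgeR adjusted p = 0.0345). Of 7 CRP, FHL and testin genes 0 rose and FHL1 (-1.23, SE 0.36, edgeR adjusted p = 0.0341) and CSRP1 (-0.54, SE 0.17, edgeR adjusted p = 0.0415) fell. Of 10 MICAL, ABLIM and LIM kinase genes 0 rose and MICAL3, a monooxygenase of the actin-oxidising family (-0.31, SE 0.07, edgeR adjusted p = 0.0103), and LIMK2, a kinase of cofilin (-0.34, SE 0.10, edgeR adjusted p = 0.0296), fell. The calls of PDLIM3 and MICAL3 held in every fit that left out 1 library, though MICAL3 was lost without the clone LmnB1_6 or mCherry_3 (edgeR adjusted p = 0.0552 and 0.126). FBLIM1, AJUBA, PXN and CSRP1 were lost too without the clone LmnB1_6 (edgeR adjusted p = 0.185, 0.158, 0.222 and 0.301). FBLIM1, AJUBA, PXN, FHL1 and LIMK2 were lost without mCherry_3 (edgeR adjusted p = 0.228, 0.241, 0.059, 0.0777 and 0.346). PXN, FHL1 and CSRP1 were lost without mCherry_4 (edgeR adjusted p = 0.135, 0.191 and 0.319). FHL1 and LIMK2 were lost without LmnB1_16 (edgeR adjusted p = 0.0503 and 0.138). PDLIM3 was called without any 1 of the clones. FBLIM1 was lost without LmnB1_6 replicate 1 or 2 or mCherry_3 replicate 1 or 3 (edgeR adjusted p up to 0.0524), and AJUBA without any 1 library of LmnB1_6 or mCherry_3 (up to 0.0646). CSRP1 was lost without any 1 library of LmnB1_6, mCherry_4 or mCherry_3 (edgeR adjusted p up to 0.0891), and FHL1 without any 1 of LmnB1_16 or mCherry_4 or without mCherry_3 replicate 1 or 3 (up to 0.0598). LIMK2 was lost without LmnB1_16 replicate 1 or 3, LmnB1_6 replicate 1 or any 1 of mCherry_3 (edgeR adjusted p up to 0.0713). On TPM FBLIM1, PXN and LIMK2 were not called (limma adjusted p = 0.055, 0.0722 and 0.0591). PXN was lost without LmnB1_16 replicate 2, any 1 of LmnB1_6, mCherry_4 replicate 1 or 3 or mCherry_3 replicate 1 or 3 (edgeR adjusted p up to 0.0767).

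Of 16 SRF and MRTF targets, genes that respond to the pool of free actin, 1 rose and 4 fell between the constructs. Over all tested genes the shares were 8.58% and 9.25%. MYL9, the regulatory light chain of non-muscle myosin, had 107 ± 5.14 and 191 ± 19.6 CPM in LmnB1_16 and LmnB1_6, against 381 ± 24.7 and 329 ± 32.98 CPM in mCherry_4 and mCherry_3 (log2 fold change -1.25, SE 0.18, edgeR adjusted p = 0.00152). TPM2, a tropomyosin, had 469 ± 32.8 and 469 ± 20.9 CPM in LmnB1_16 and LmnB1_6, against 686 ± 46.5 and 582 ± 12.4 CPM in mCherry_4 and mCherry_3 (-0.44, SE 0.07, edgeR adjusted p = 0.00261). CALD1, the actin and myosin binder caldesmon, fell as well (-0.63, SE 0.14, edgeR adjusted p = 0.0109), and these 3 calls held in every fit that left out 1 library. TPM1 (-0.41, edgeR adjusted p = 0.0405) and the formin FHOD1, the one that rose (0.33, edgeR adjusted p = 0.0354), were named after their values were seen. Of 16 binding partners 0 rose and KRT18 fell (-0.58, SE 0.15, edgeR adjusted p = 0.0215), a call lost without LmnB1_6 replicate 2 or mCherry_3 replicate 1 or 3 (edgeR adjusted p up to 0.0525). KRT18 was also lost without the clone LmnB1_6 or mCherry_3 (edgeR adjusted p = 0.14 and 0.239).

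More of these genes were called between clones of a construct than between the constructs, in a fit with less spread (biological coefficient of variation 0.0842 with the clones as groups and 0.262 with the constructs). In mCherry_4 over mCherry_3, 32 of the 65 genes were higher and 15 lower, and in LmnB1_16 over LmnB1_6, 12 were higher and 33 lower (medians 0.20 and -0.21), beside 19.9% higher and 17.4% lower over all tested genes for the mCherry clones and 17.8% and 16.6% for the LmnB1 clones. Of the binding partners 12 of 16 were higher in mCherry_4 and 1 lower, and of the SRF targets 12 of 16 were higher and 2 lower. The genes named next, ACTN4, VASP, ACTB, ACTG1, SRF, ACTG2 and CNN1, were chosen after their values were seen. The alpha-actinin gene ACTN4 had 2396 ± 170.4 CPM in mCherry_4 and 1337 ± 41.7 CPM in mCherry_3 (log2 fold change 0.84, SE 0.06, edgeR adjusted p = 1.3e-08). VASP, the partner that zyxin recruits, had 217 ± 10.1 CPM in mCherry_4 and 131 ± 3.67 CPM in mCherry_3 (0.73, SE 0.06, edgeR adjusted p = 1.48e-07). The actin genes ACTB and ACTG1 had log2 fold changes of 0.84 and 1.15 and SRF itself 0.75 in the same contrast, in which ZYX, PDLIM5 and PDLIM7 were higher too. The smooth muscle genes ACTG2, another actin, and CNN1, a calponin, were lower in mCherry_4 (-1.89 and -0.58, edgeR adjusted p = 0.0155 and 0.021). In LmnB1_16 over LmnB1_6, all 5 other PDZ-LIM genes were lower, as PDLIM7 was and PDLIM5 was not.

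Markers of cell types were read from 7 lists. Of the simple epithelial keratin genes KRT8 and KRT18 fell in the LmnB1 libraries, with KRT8 at 372 ± 12.3 and 324 ± 12.2 CPM in LmnB1_16 and LmnB1_6, against 400.5 ± 19.4 and 593 ± 17.6 CPM in mCherry_4 and mCherry_3 (log2 fold change -0.51, SE 0.13, edgeR adjusted p = 0.019). KRT8 was lost without the clone LmnB1_6 or mCherry_3 (edgeR adjusted p = 0.143 and 0.172). KRT19, EPCAM and CDH1 stayed at or under 0.196 CPM in every library, and the summed level of this list was 588 to 829 CPM in the LmnB1 and 849 to 1289 CPM in the mCherry libraries. The pigment epithelium list summed to 55.7 to 59.9 CPM in LmnB1_16 but 11.6 to 12.1 CPM in LmnB1_6. In mCherry_4 it summed to 68.1 to 79.5 CPM and in mCherry_3 to 86.4 to 96.5 CPM. Of 6 tested, SERPINF1 was higher (1.46, SE 0.42, edgeR adjusted p = 0.0348) and RDH5 lower (-0.51, SE 0.14, edgeR adjusted p = 0.0291). The median log2 fold change of the 6 was -0.57. Another gene of the 6 was called lower in all 4 clone pairs, as 2.91% of all genes are, and SERPINF1 and RDH5 were not. SERPINF1 and COL1A1 were not called on TPM (limma adjusted p = 0.255 and 0.0694). The SERPINF1 and RDH5 calls were lost in several fits that left out 1 library or 1 clone. Without the clone LmnB1_6 their log2 fold changes were 0.69 and -0.37 (edgeR adjusted p = 0.365 and 0.198). SERPINF1 was also lost without the clone mCherry_4 and RDH5 without the clone mCherry_3 (edgeR adjusted p = 0.144 and 0.24). SERPINF1 was lost without any 1 of 8 libraries (edgeR adjusted p up to 0.0762), all but the LmnB1_16 libraries and mCherry_3 replicate 2. RDH5 was lost without mCherry_4 replicate 3 or any 1 of LmnB1_6 or mCherry_3 (edgeR adjusted p up to 0.069). Of 5 tested mesenchymal genes COL1A1 rose, at 20.5 ± 2.40 and 186 ± 34.2 CPM in LmnB1_16 and LmnB1_6, against 17.5 ± 3.15 and 15.1 ± 0.880 CPM in mCherry_4 and mCherry_3 (2.66, SE 0.63, edgeR adjusted p = 0.0156), a value that was 0.34 without the clone LmnB1_6 (edgeR adjusted p = 0.133), and the list summed to 5724 to 6626 CPM in the LmnB1 and 3924 to 7370.2 CPM in the mCherry libraries. Genes of stratified epithelium, a tissue in which ZNF185 is also known, summed to 0.0983 to 1.52 CPM in the LmnB1 and 0.135 to 0.501 CPM in the mCherry libraries, with KRT5, KRT14, TP63 and DSG3 at 0 to 2 counts in each clone. Muscle genes summed to 0.403 to 1.43 CPM in the LmnB1 and 0.577 to 2.45 CPM in the mCherry libraries, with MYOG and TNNT2 at 0 counts. Endothelial genes summed to 4.42 to 9.29 CPM in the LmnB1 and 3.84 to 16.4 CPM in the mCherry libraries, nearly all of it TIE1, and leukocyte genes to 42.96 to 80.6 CPM in the LmnB1 and 66.3 to 88.6 CPM in the mCherry libraries, nearly all of it CD68. Of these last 4 lists edgeR called 0 of 7 tested genes between the constructs (1 at an unadjusted p under 0.05, DESeq2 called 0), beside 17.8% of all tested genes by edgeR. The part of the keratin and COL1A1 differences in the LIM gene values was not tested.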

How the data were processed

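RNA-seq of 12 libraries, 3 from each of 4 clones, was analysed from gene-level tables. Per the file headers the authors deposited Salmon's estimated counts and TPM for each gene, with transcript lengths. Alignment and quantification tools are listed without versions or roles in the submitters' processing notes (STAR, Salmon, DESeq2; builds GRCh38 and hg38). Estimated counts, fractional for 31.3% to 32.6% of the genes detected in a library, were rounded before the tests. Libraries of a clone differed beyond counting noise (chi-square per degree of freedom at least 3.85), so none was merged. Counts were scaled with TMM factors and kept by edgeR's filterByExpr (minimum count 10, total 15). The main test was edgeR 4.0.16 (R 4.3.3) by quasi-likelihood with Benjamini-Hochberg adjustment over 15388 genes and a threshold of 0.05, with the constructs as groups for LmnB1 against mCherry and the 4 clones as groups for contrasts between clones. DESeq2 1.42.0 and limma 3.58.1 on log2(TPM + 0.1) were alternatives, and limma tested log2 effective length. The depth of 20.6 to 29.5 M limits precision most for ZNF185 in the mCherry clones. Positions came from GENCODE 29 and promoters from RefSeq, and 58396 of 60708 identifiers matched GENCODE 29. The authors' annotation release is unknown here.

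The members and gene lists were chosen with earlier results of these data known, so member values between the constructs carry no test. Beside the members, the genes named were up to 3 called genes per list with the smallest adjusted p (otherwise the most abundant), the genes nearest in pattern and the tested neighbours of ZNF185. Others are said to be chosen after their values were seen. The scripts were tested on simulated data.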

Additional observations from a re-analysis of the deposited data

Results flagged for a closer look

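The LIMA1 level in mCherry_3 replicate 1, 197 CPM, stood apart from the other 5 mCherry libraries, which lay at 167 to 177 CPM. In all 70 groups of 6 libraries were checked in this way, and chance sets apart about 1 in 20.

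For 20 of the 28 genes named by rule and examined, the clones of the fusion differed from each other, so the size of the difference from the mCherry clones depends on the clone (edgeR adjusted p between 1.62e-11 and 0.0369), beside 34.4% of all 15388 tested genes called in that contrast. In log2 fold change of LmnB1_16 over LmnB1_6, LMO7 (0.48) and PDLIM5 (0.60) were higher, and ZNF185 (-0.51), LASP1 (-0.14), PDLIM7 (-0.55) and LMNB1 (-0.24) lower. Among list genes AJUBA (0.52), CSRP1 (0.59) and KRT18 (0.59) were higher, and PDLIM3 (-1.41), FBLIM1 (-0.76), FHL1 (-1.67), LIMK2 (-0.23) and MYL9 (-0.84) lower. Among marker genes KRT8 (0.20), TIE1 (0.46) and CD68 (0.81) were higher, and SERPINF1 (-1.26), SFN (-2.55) and COL1A1 (-3.17) lower.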

How the results depend on the processing

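Against 2743 genes called between the constructs, limma on TPM called 1684, the fit with a replicate block 1648, counts summed per clone 0 (643 at an unadjusted p under 0.05) and clone means in the 4-clone fit 7141. Leaving out a clone gave 4808 (LmnB1_16), 1263 (LmnB1_6), 4958 (mCherry_4) and 647 (mCherry_3). Leaving out a library gave 1392 to 3078, with 1567 and 1527 without LmnB1_6 replicates 1 and 2, 1828 without replicate 3, and 1493, 1495 and 1392 without mCherry_3 replicates 1, 2 and 3. For the 14 list genes (3 higher, 11 lower) the counts were 8 with the replicate block (2 and 6), 0 summed per clone, 40 with clone means (10 and 30), 25 without LmnB1_16 (12 and 13), 22 without mCherry_4 (14 and 8, a turned direction), and 6 to 13 without 1 library. The 720 genes called in all 4 clone pairs became 360 on TPM. The cause of these changes was not tested. Reversed signs were LIMA1 in mCherry_4 over mCherry_3 without mCherry_3 replicate 1 (0.0486; range without 1 library -0.0725 to 0.0486), CD68 without LmnB1_6 (0.00687), and DES (0.35) and TIE1 (0.67) without mCherry_3, none of them called. Between clones of a construct the totals of all genes and of list genes called stayed within 1.5 times. On TPM the members called became 3 (from 5) for LmnB1_16 against LmnB1_6, where 4124 of all genes were called (from 5289). For mCherry_4 against mCherry_3 they became 3 (from 6), where 4633 of all genes were called (from 5752). There the genes called higher became 1412 (from 3067).

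Libraries of different clones with equal replicate numbers had correlations of deviations from the clone mean of -0.08 to 0.25. The highest were between replicates 3 of LmnB1_16, LmnB1_6 and mCherry_4 (0.18 to 0.25). Unequal replicate numbers were not compared, so whether the numbers pair libraries was not tested. The block gave 5391 calls for LmnB1_16 against LmnB1_6 (5289 without it) and 5855 for mCherry_4 against mCherry_3 (5752). With 2 clones a construct, differences between constructs and between clones cannot be told apart for genes that vary among clones.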
